A study of Bos taurus with 111 samples.

Results

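Charolais (CH) steers offered zero-grazed grass (ZG) were compared by feed efficiency, with 9 low residual feed intake (L-RFI) libraries set against 8 high residual feed intake (H-RFI) libraries out of 111 libraries in the series. The labels place 19 libraries in this breed and diet, 10 L-RFI and 9 H-RFI. The L-RFI library of steer 357 was left out because it held 4019 counts on genes, under the minimum of 1000000, and the H-RFI library of steer 571 was left out because its RNA was not muscle-like, as set out below. A biopsy of M. longissimus thoracis et lumborum was taken from each steer after a 70 d feeding phase on cut perennial ryegrass offered ad libitum, and its poly(A) RNA was sequenced with a stranded kit.

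Residual feed intake is what an animal eats minus what its weight and growth predict, so an L-RFI steer is the efficient one. The 12 steers at each extreme were selected within breed and diet, so the classes are the 2 ends of one ranking and not a genotype or a treatment. CH steers averaged 283 d of age when the first feeding phase began and 519 kg at the start of the phase that the labels number 3, the number in the titles of the grass samples. All steers of both classes received the same grass. RFI was ranked afresh in each phase, so a steer could be in one class on grass and in the other on concentrate. The longissimus is a mixed-fibre postural muscle of the back that stores fat between its fibre bundles. Its fat cells build triglyceride from fatty acids that are taken up from blood or synthesised from acetate, and they coat the droplets with dedicated proteins, while the fibres themselves differ in the myosin heavy chain that they use. Each biopsy holds fibres, fat cells, vessels, connective tissue and blood in proportions that were not recorded.

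The labelled tissue was checked against its genes. MYH6, a cardiac and slow-type myosin heavy chain, was detected at 147 to 667 CPM (counts scaled to a library total of 1000000) in the 17 libraries kept, and CSRP3, a Z-disc protein of slow and cardiac muscle, at 49.7 to 720 CPM. The library of steer 571 held MYH6 at 0.507 CPM and CSRP3 at 0.145 CPM. It held ALB, the albumin gene of hepatocytes, at 101449 CPM, against 15.6 to 287 CPM in the libraries kept. The 12 hepatocyte markers with a name summed to 164190 CPM in it and to at most 431 CPM elsewhere. The usual muscle markers such as ACTA1 and CKM carry no name in the tables used here and could not be looked up.

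Reads counted on genes ranged from 6402100 to 33640376 in L-RFI (median 17120244) and from 4534891 to 27406151 in H-RFI steers (median 21047378). Of 6 library measures (depth and the shares of reads that were unmapped, multimapping, on no gene, on several genes or on the 10 highest genes), none differed between the classes past its test, with two-sided exact permutation p-values of 0.184 to 0.994 and an adjusted p of 0.994 for each (n = 9 and 8). The libraries nevertheless differed strongly in composition. The 10 highest genes took 26.4% to 46.2% of the counts, and the TMM factor, edgeR's correction for such differences, ran from 0.634 to 1.63. Expression of MT-CO3, a mitochondrially encoded subunit of cytochrome c oxidase, followed the factor across the 17 libraries (Pearson's r = -0.928, permutation p = 1e-05, the smallest that the permutations can give, adjusted p = 4.5e-05 over 9 relations, Spearman's rho = -0.907). Normalized values are divided by the factor, so the 2 measures share it. That relation was -0.890 without the 2 libraries farthest from the median, -0.927 within L-RFI (n = 9) and -0.927 within H-RFI steers (n = 8). The first principal component of the log expression values held 68.0% of the variance. A TMM factor under 0.8 was found in 5 libraries, of which 4 were L-RFI (steers 545, 1492, 1831 and 1834) and 1 was H-RFI (steer 1843). MT-CO3 stood at 38116 to 62392 normalized CPM in those 5 libraries and at 6107 to 37745 in the other 12. Reads on no gene made up 6.29% to 7.45% in the 5 and 7.58% to 16.8% in the 12. Counts on genes ran from 4534891 to 19929014 in the 5 and from 9519688 to 33640376 in the 12. The part of depth or library quality in the low factors was not tested. Values that moved by more than 1.5 times without these 5 libraries, an alternative chosen after seeing the data, are given both ways for the genes described from the main comparison.

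**Figure D1:**
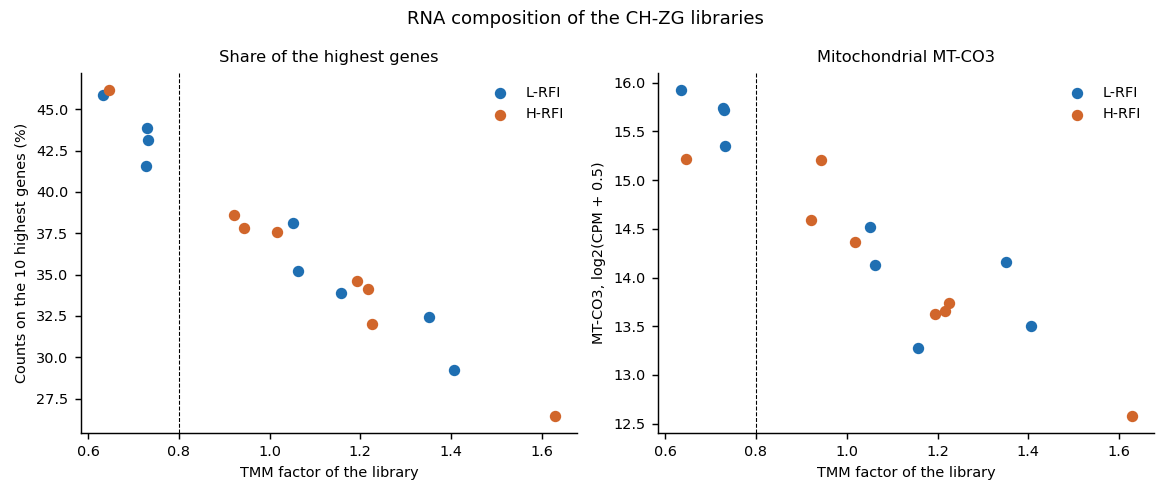
Composition of the 17 CH-ZG libraries, 1 point each, coloured by RFI class: the share of counts on the 10 highest genes (left, %) and MT-CO3 (right, log2 of normalized CPM plus 0.5) against the TMM factor. Both measures decrease with the factor, and 4 of the 5 libraries left of the dashed line at 0.8 are L-RFI.

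The first question was which genes differ in muscle between efficient and inefficient steers on grass. No gene passed the thresholds of an adjusted p under 0.1 and a fold change above 1.5, that is 0 of 9823 genes (0%), and the smallest adjusted p was 1.00 (edgeR's quasi-likelihood test). At an unadjusted p under 0.05 there were 79 genes, 43 lower in L-RFI (0.438% of those tested) and 36 higher (0.366%). An average of 491 would be expected if no gene differed, and genes that vary together widen the spread around it. edgeR's exact test and DESeq2's Wald test also called 0 genes, with 66 and 106 genes at an unadjusted p under 0.05. The number at that limit depended on the fit. It was 330 in limma voom with sample quality weights, 342 with the TMM factor as a covariate and 241 without the 5 libraries of low factor. Each of these also called 0 genes. Changes are given as log2 FC, the log2 fold change of L-RFI over H-RFI, ± its standard error, which had a median of 0.27 over the genes. The values of every L-RFI steer were on one side of those of every H-RFI steer in 0 genes (0%). All verbs of direction below therefore describe the values of these 17 steers, and no gene is called different.

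Most genes in the files carry no name here, and the names used come from the study's own lists. Of the 151 genes that could be named, 103 were tested and 13 had an unadjusted p under 0.05, of which 10 were lower in L-RFI and 3 higher. Over all 9823 genes tested it was 79, with 43 lower and 36 higher. A name depends on the study having listed the gene, on samples that include these. The count among named genes is therefore not independent evidence of a difference or a direction. The study listed 19 genes for this comparison, and 15 of them could be examined. Of these, 11 passed the filter on low counts, 7 lower and 4 higher in L-RFI, and 9 had an unadjusted p under 0.05. The study chose that list on samples that include these, so its count and its median log2 fold change of -1.08, against 0.01 over all genes tested, are not independent evidence of a direction. The other 4, ADIPOQ, SCD and 2 genes without a name, were not analysed here. The gene with the smallest p was ENSBTAG00000019813, to which the tables give no name, with a median of 1.48 normalized CPM in L-RFI and 8.77 in H-RFI steers (log2 FC -2.25 ± 0.67, unadjusted p = 0.00332, edgeR adjusted p = 1.00).

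**Figure D2:**
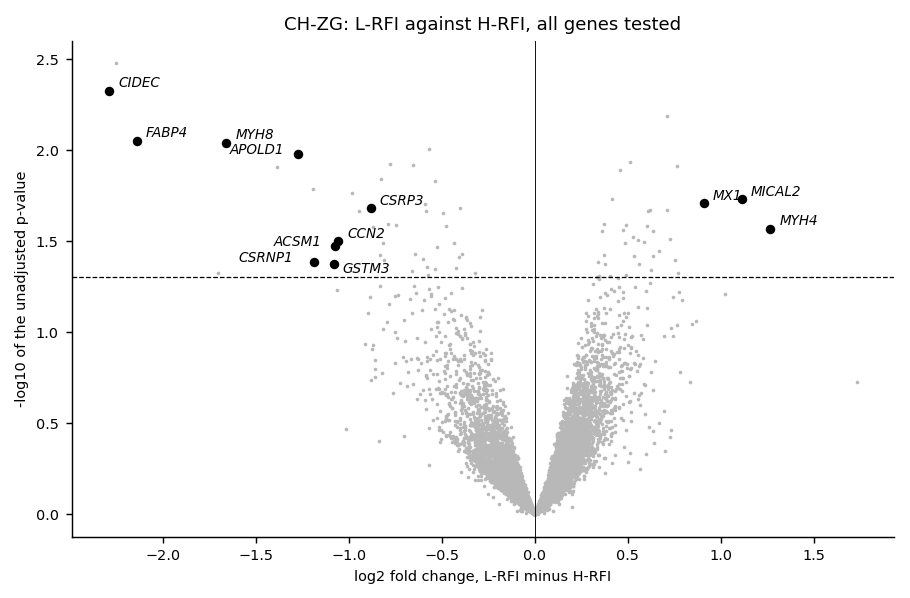
Log2 fold change (L-RFI minus H-RFI, x axis) and -log10 of the unadjusted p-value (y axis) of the 9823 genes tested in CH-ZG, with 12 named genes in black. The dashed line marks an unadjusted p of 0.05. The 12 were picked from the named genes above that line, and 9 of them lie on the side of lower expression in L-RFI. Over all 9823 genes, 4787 were lower in L-RFI and 5036 higher.

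Fat cell genes were among those with the widest gaps between the classes. CIDEC coats the large lipid droplet of fat cells and lets droplets fuse. Its normalized CPM ran from 0.36 in steer 788 to 4.19 in steer 1492 in L-RFI (median 0.84) and from 0.101 in steer 1816 to 19.9 in steer 437 in H-RFI (median 3.15). The classes overlapped, since 3 H-RFI steers (437, 1484 and 307) were above every L-RFI steer while the lowest steer of all was also H-RFI. The L-RFI mean was 1.40 ± 1.299 (SD, n = 9) against 6.36 ± 7.28 in H-RFI (SD, n = 8), with a log2 FC of -2.29 ± 0.72, or 4.89-fold more in H-RFI (unadjusted p = 0.00472, edgeR adjusted p = 1.00). In bulk tissue, fewer fat cells and less of the transcript per fat cell cannot be told apart.

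FABP4, the fatty acid carrier of fat cells, was at 0.194 to 2.98 normalized CPM in L-RFI (median 0.952) and at 0 to 17.1 in H-RFI (median 3.198). There 5 of 8 H-RFI steers exceeded every L-RFI steer and the steer without a FABP4 read, 1816, was H-RFI. L-RFI minus H-RFI, the log2 FC was -2.14 ± 0.74 (unadjusted p = 0.00889, edgeR adjusted p = 1.00). TRARG1, which regulates trafficking of the insulin-responsive glucose transporter, had medians of 0.805 and 2.43 normalized CPM, with 3 H-RFI steers, 437, 1484 and 1879, above the L-RFI maximum of 3.95. It reached 1 normalized CPM in 8 of the 17 libraries. The filter, which uses CPM before the TMM factor, left it out. Without a filter its log2 FC was -1.78 ± 0.67 (unadjusted p = 0.0151, edgeR adjusted p = 1.00).

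Steers 437 and 1484 were also the highest for the fatty acid synthesis genes THRSP and FASN. THRSP, a regulator of lipogenesis, was at 0 to 3.84 normalized CPM in L-RFI (median 0.421) and at 0.0675 to 30.2 in H-RFI (median 2.501), and reached 1 normalized CPM in 7 libraries only. Without a filter the log2 FC was -2.45 ± 0.85 (unadjusted p = 0.00897, edgeR adjusted p = 1.00). FASN, the fatty acid synthase, had 20.3 to 82.1 in L-RFI (median 27.4) and 21.4 to 126 in H-RFI steers (median 36.7). Steers 437 and 1484 lay above the L-RFI maximum, and the log2 FC of -0.75 ± 0.38 had an unadjusted p of 0.063, and it was -0.50 without steer 437. ACSM1, an acyl-CoA synthetase for medium-chain acids, had medians of 1.65 and 2.49 normalized CPM and a log2 FC of -1.08 ± 0.47 (unadjusted p = 0.0334), with 3 H-RFI steers, 1484, 1843 and 437, above every L-RFI steer. It was at -0.10 in limma voom with sample quality weights and at -6.13 with the left-out library of steer 571. Steer 1843 also held the highest sum of hepatocyte markers, 667, whose part in that value was not tested. PLIN5 coats droplets inside muscle fibres rather than in fat cells. It differed little, from 9.27 to 18.2 in L-RFI and from 8.13 to 32.8 in H-RFI, with medians of 14.7 and 13.4 (log2 FC -0.04 ± 0.26, and 0.17 without the 5 libraries of low TMM factor).

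The lists for this tissue can be summarised only for members that carry a name. Of 21 genes of adipocytes and lipid storage, 5 were named in the files and 3 tested (CIDEC, FABP4 and PLIN5), all lower in L-RFI, 2 of them at an unadjusted p under 0.05, with a median log2 fold change of -2.14. Of 12 genes listed under fatty acid synthesis, 4 were named and 2 tested, FASN and the acyl-CoA synthetase ACSM1, with a median of -0.91. FASN alone was at -0.75. Of 18 genes of fatty acid uptake and oxidation, 2 were tested, with a median of 0.12. One of them, PDK4, the kinase that shuts pyruvate out of oxidation, had medians of 111 and 95.0 normalized CPM in L-RFI and H-RFI (log2 FC -0.13 ± 0.65, and 0.30 without the 5 libraries of low TMM factor). Steer 1879 held 806 and the other H-RFI steers less than the L-RFI maximum of 381. None of these lists held a called gene, and the median over all genes tested was 0.01. The names come from the study's own lists, and CIDEC and FABP4 are on its list for this comparison. The counts and medians of these lists are therefore not independent evidence of a direction, and the members without a name were not examined.

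Across the 17 steers the fat genes varied together. CIDEC and TRARG1 had a Pearson's r of 0.957 on the log2 scale (permutation p = 1e-05, the smallest possible, adjusted p = 4.5e-05 over 9 relations, rho = 0.963, permutation p = 1e-05). It was 0.910 without steers 437 and 1484, the 2 farthest from the median of CIDEC, 0.959 within L-RFI and 0.955 within H-RFI. CIDEC and FABP4 gave 0.910 (permutation p = 2e-05, adjusted p = 4.5e-05, rho = 0.870, permutation p = 4e-05), and 0.815 without those steers, 0.796 within L-RFI and 0.919 within H-RFI. CIDEC and THRSP gave 0.859 (permutation p = 2e-05, adjusted p = 4.5e-05, rho = 0.801, permutation p = 0.00024), and 0.689 without those steers, 0.550 within L-RFI and 0.914 within H-RFI. CIDEC and FASN gave 0.829 (permutation p = 0.00011, adjusted p = 0.000198, rho = 0.767, permutation p = 0.00057), and 0.623 without those steers, 0.692 within L-RFI and 0.851 within H-RFI. All 4 coefficients were positive inside each class, where they were not tested. CIDEC, TRARG1, FABP4 and THRSP are on the study's list for this comparison. The tests over both classes therefore take genes already chosen for a class difference. No relation of CIDEC with the TMM factor was detected (r = -0.03, permutation p = 0.913, rho = -0.08). Without the 5 libraries of low factor, CIDEC stood at a log2 FC of -2.89, FABP4 at -2.32 and FASN at -1.23, and no gene was called. CIDEC was at -1.23 and FABP4 at -0.35 in limma voom with sample quality weights.

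**Figure D3:**
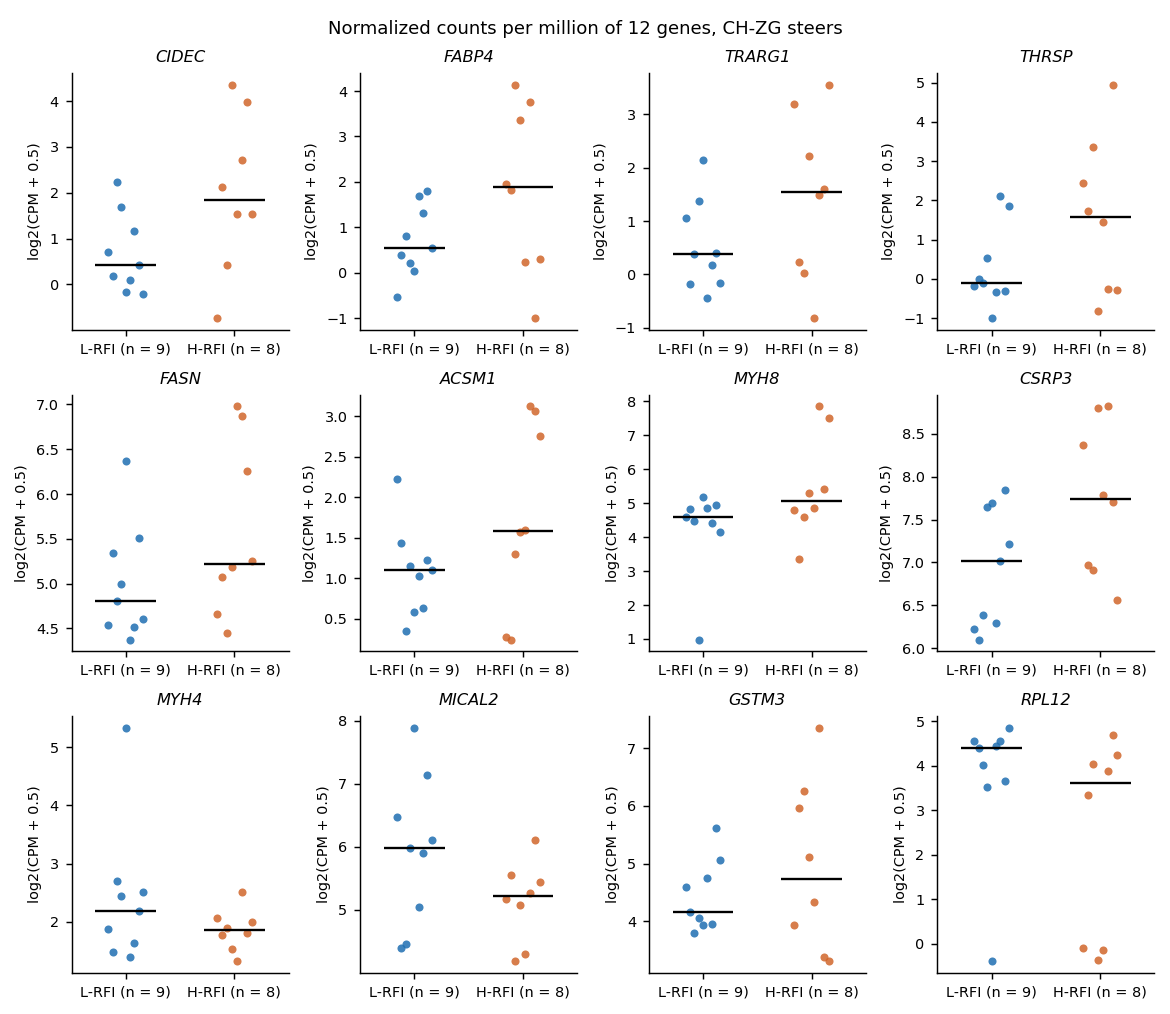
Each panel shows 1 gene in the 9 L-RFI and 8 H-RFI steers of CH-ZG, 1 point per steer, as log2 of normalized CPM plus 0.5, with the class median as a line. The classes overlap in all 12 panels, MYH4 has 1 high L-RFI steer at 39.6 CPM, and RPL12 has 4 steers under 1 CPM.

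Among the contractile genes named here, a developmental myosin had the largest gap. MYH8, the perinatal myosin heavy chain that adult fibres use while they regenerate, was at 1.47 to 36.0 normalized CPM in L-RFI (median 23.6) and at 9.75 to 231 in H-RFI (median 33.7). Steers 449 and 427, both H-RFI, stood at 231 and 180, far above the rest, and 2 more H-RFI steers exceeded the L-RFI maximum. This gave a log2 FC of -1.66 ± 0.57 (unadjusted p = 0.00908, edgeR adjusted p = 1.00) and -1.12 without steer 449. CSRP3 had medians of 129 and 214 normalized CPM, and 3 H-RFI steers lay above the L-RFI maximum of 229 (log2 FC -0.88 ± 0.35, unadjusted p = 0.0208). The other slow-type genes differed less, with a log2 fold change of 0.19 for MYH6 (standard error 0.35) and -0.27 for MYL6B, a slow and non-muscle myosin light chain (standard error 0.49), which was -0.53 without the 5 libraries of low TMM factor. MYH6 was at -0.084 without them.

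MYH4 encodes the fast IIb myosin heavy chain, which most cattle muscles express weakly. Its values were 2.13 to 39.6 normalized CPM in L-RFI (median 4.07) and 2.01 to 5.19 in H-RFI (median 3.11). The gap came mostly with steer 318, at 39.6, since the next L-RFI steer held 5.97. The log2 FC of 1.27 ± 0.53 (unadjusted p = 0.0270, edgeR adjusted p = 1.00) was 0.21 without that steer (unadjusted p = 0.415) and 0.27 in limma voom with sample quality weights. Over the lists, 4 of 15 slow-fibre genes were tested (3 lower, 1 higher in L-RFI, median -0.17), 1 of 13 fast-fibre genes (MYH4) and 4 of 14 developmental genes (2 lower, 2 higher, median -0.29). The defining chains MYH7, MYH2 and MYH1 carry no name in the tables used, so fibre type was not measured.

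MICAL2, an enzyme that oxidises and disassembles nuclear actin, was at 20.5 to 236 normalized CPM in L-RFI (median 62.9) and at 17.7 to 68.6 in H-RFI (median 36.7). Of the 4 L-RFI steers above every H-RFI steer, 1483 was at 68.7 and 545, 1492 and 1831 at 88.9, 141 and 236. The last 3 are among the 5 libraries with a low TMM factor. The log2 FC of 1.11 ± 0.43 (unadjusted p = 0.0186, edgeR adjusted p = 1.00) was 0.72 without steer 1831, 0.31 without those 5 libraries (unadjusted p = 0.368) and 0.55 with the factor as a covariate (unadjusted p = 0.069). Both mitochondrial transcripts with a name went with the same libraries. MT-CO3 had medians of 23465 and 17355 normalized CPM in L-RFI and H-RFI (log2 FC 0.65 ± 0.43), and -0.19 without the 5 libraries. MT-ND3, a subunit of complex I, had a log2 FC of 0.56 ± 0.45 and -0.11 without them. Of 28 genes listed under the respiratory chain, 5 were tested, 3 higher and 2 lower in L-RFI, with a median of 0.14. The lowest on that list was CKB, the brain-type creatine kinase and not a component of the chain, at -0.66 (standard error 0.43). It was at -0.26 without steer 1484 (unadjusted p = 0.519) and at -1.22 without the 5 libraries (unadjusted p = 0.0279).

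Of the vessel and matrix genes described here, APOLD1, CCN2 and NPR3 had lower means in L-RFI, while their lists were split evenly between lower and higher. APOLD1, an endothelial gene, was at 0.4933 to 3.77 normalized CPM in L-RFI (median 2.20) and at 1.02 to 17.9 in H-RFI (median 4.15). Steer 1879 held the 17.9 and steers 437, 1816 and 449 held 5.76, 5.74 and 5.06, all above the L-RFI maximum. The log2 FC was -1.27 ± 0.45 (unadjusted p = 0.0105, edgeR adjusted p = 1.00), and -0.67 without steer 1879, whose library had the highest TMM factor. With the factor as a covariate it was -0.68.

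CCN2, a matrix-associated growth factor induced by TGF-beta, was at 2.06 to 16.3 normalized CPM in L-RFI (median 7.74) and at 6.22 to 43.2 in H-RFI (median 7.81). The medians were nearly equal, and 2 H-RFI steers, 1484 and 1879, were above every L-RFI steer. This gave a log2 FC of -1.06 ± 0.46 (unadjusted p = 0.0316, edgeR adjusted p = 1.00), -0.62 without steer 1484 and -1.61 without the 5 libraries of low TMM factor. NPR3, the clearance receptor for natriuretic peptides, reached 1 normalized CPM in 4 libraries, all of them H-RFI. Its medians were 0.137 and 0.862, and without a filter its log2 FC was -1.65 ± 0.54 (unadjusted p = 0.00606, edgeR adjusted p = 1.00). Of 27 matrix genes, 6 were tested, 3 lower and 3 higher (median -0.21), and of 12 vessel genes, 2 were tested (median -0.63).

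GSTM3, a glutathione S-transferase that conjugates reactive compounds, was at 13.4 to 48.3 normalized CPM in L-RFI (median 17.3) and at 9.44 to 162 in H-RFI (median 27.0). Steers 1484, 427 and 437 held 162, 76.3 and 61.7, while the lowest steer was also H-RFI. L-RFI minus H-RFI, the log2 FC was -1.08 ± 0.50 (unadjusted p = 0.0422, edgeR adjusted p = 1.00), -0.49 without steer 1484 and -1.73 without the 5 libraries of low TMM factor.

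Immediate early genes are transcribed within minutes of a stimulus such as stretch or handling. All 17 named members of a list of 20 were tested, 14 lower and 3 higher in L-RFI, with a median of -0.32. Over all genes tested, 4787 were lower and 5036 higher. In this list only CSRNP1, a transcription factor, had an unadjusted p under 0.05, with medians of 8.14 and 12.7 normalized CPM (log2 FC -1.19 ± 0.54, unadjusted p = 0.0412) and its highest value, 65.4, in steer 1484. It was at -0.68 without that steer. EGR1 had a log2 FC of -0.86 ± 0.59, which was -0.21 without steer 449 (unadjusted p = 0.698). The summed level of the list ran from 329 to 1888 in L-RFI (median 767) and from 508 to 2797 in H-RFI (median 797). The classes thus overlapped widely and their medians were close. Of the 7 stress and growth restraint genes tested, 3 were lower and 4 higher (median 0.16). METTL21C, a muscle protein methyltransferase, had a log2 FC of -1.07 ± 0.53 (unadjusted p = 0.0587), which was -0.57 without steer 1879 (unadjusted p = 0.267) and -0.64 with the TMM factor as a covariate. DDIT4, an inhibitor of mTORC1, was at 0.27 (standard error 0.27) and at 0.063 without the 5 libraries of low factor. NFKBIA, the NF-kappaB inhibitor, was at -0.22 (standard error 0.23) and -0.35 without them.

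MX1, an interferon-induced GTPase, was at 1.58 to 11.6 normalized CPM in L-RFI (median 4.23) and at 1.02 to 4.75 in H-RFI (median 2.01). The 2 L-RFI steers above every H-RFI steer were 318 and 1492. This gave a log2 FC of 0.91 ± 0.36 (unadjusted p = 0.0195, edgeR adjusted p = 1.00), 0.57 without steer 318 and 0.44 in limma voom with sample quality weights. That steer also held the highest sums of lymphoid and myeloid markers in L-RFI, 43.8 and 64.9, and their part in the difference was not tested. Only 1 other named gene of the interferon list was tested, IDO1, and it lay on the other side. Its log2 fold change was -0.17 (standard error 0.45), 0.027 without the 5 libraries of low TMM factor and 0.36 without steer 1879. PLEK, a protein of platelets and leucocytes, had nearly equal medians of 1.92 and 1.82, and its log2 fold change of 0.78 (standard error 0.54) was -0.11 without steer 1831, which held 17.4, and -0.013 without the 5 libraries. The neuronal gene SYN1 had medians of 3.91 and 2.69 normalized CPM (log2 FC 0.85 ± 0.48), and 0.42 without the 5 libraries of low TMM factor. MAGIX, a PDZ domain protein, and NAV2, a neuron navigator, had 0.51 each (standard errors 0.36 and 0.42). MAGIX was at 0.27 without steer 545, 0.15 without the 5 libraries and 0.19 with the factor as a covariate, and NAV2 was at 0.25 without steer 788.

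Markers of other cell types were summed over their named members. The 8 lymphoid markers reached 2.33 to 43.8 normalized CPM in L-RFI and 2.32 to 33.6 in H-RFI, and all 8 were below the filter. The 9 myeloid markers reached 4.84 to 64.9 and 3.75 to 48.1, and the 2 markers of red blood cells and platelets at most 1.73 and 3.19. The 12 hepatocyte markers summed to 35.6 to 192 in L-RFI and to 41.4 to 667 in H-RFI, with the maximum in steer 1843. ALB alone was at 444 in that steer, and its log2 fold change of -0.87 (standard error 0.53) was 0.07 without it and 0.27 without the 5 libraries of low TMM factor. The part of these markers in the differences above was not tested.

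RPL12, a protein of the large ribosomal subunit that is on the study's list, fell into 2 clearly separate levels. In 13 steers it was at 9.54 to 28.2 normalized CPM and in 4 steers at 0.260 to 0.429, with nothing between. The low steers were 318 in L-RFI and 437, 449 and 1816 in H-RFI, that is 1 of 9 and 3 of 8. The log2 FC of 0.73 ± 0.76 (unadjusted p = 0.346) goes with that count, and it was 2.39 in limma voom with sample quality weights. RPL12 has near-identical processed copies in mammalian genomes, so its count is uncertain. RPL38, the other ribosomal protein gene tested, had no such split, with 27.7 to 129 in L-RFI and 21.5 to 112 in H-RFI (log2 FC 0.43 ± 0.35). Its log2 FC was 0.0041 without the 5 libraries of low TMM factor, 0.13 with the factor as a covariate and 0.28 without steer 1831. Another pair of genes on the study's list carry no name. ENSBTAG00000015727 had medians of 1.36 and 4.39 normalized CPM and 3 libraries at 0 (log2 FC -1.71 ± 0.80, unadjusted p = 0.0472), and ENSBTAG00000034182 stayed at or under 0.341 in every library.

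The design also allows the effect of RFI on grass to be set against that in the same breed on concentrate, before (CH-H1, 8 L-RFI and 10 H-RFI) and after (CH-H2, 7 and 7), and in Holstein-Friesian steers on grass (HF-ZG, 9 and 10). In 1 fit of 104 libraries, the difference between the effects passed an adjusted p under 0.1 in 0 of 10291 genes (0%) for each of the 3 contrasts (edgeR's quasi-likelihood test), with 65, 111 and 235 genes at an unadjusted p under 0.05. limma voom with the steer as a block also found 0. The effect itself on this scale was -2.28 ± 0.80 (standard error) for CIDEC in CH-ZG, -0.99 ± 0.76 in CH-H1, -2.19 ± 0.89 in CH-H2 and 0.36 ± 0.69 in HF-ZG. Its difference from HF-ZG was -2.64 (standard error 1.05, unadjusted p = 0.0136, edgeR adjusted p = 0.894), so an effect particular to CH-ZG was not shown.

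Against CH-H1, APOLD1 had the smallest p of the named genes, with an effect of -1.27 in CH-ZG and 0.83 in CH-H1 (difference -2.10, standard error 0.53, unadjusted p = 0.000135, edgeR adjusted p = 1.00). NFKBIA followed with -0.22 and 1.00 (difference -1.22, standard error 0.36), and CCN2 with -1.05 and 0.10 (difference -1.15, standard error 0.45). Against CH-H2 these were MX1, with 0.91 and -1.40 (difference 2.31, standard error 0.75, unadjusted p = 0.00285), MICAL2, with 1.13 and -0.45 (difference 1.58, standard error 0.55), and CCN2, with -1.05 and 0.06. Against HF-ZG they were SNX10, a sorting nexin, with 0.20 and -1.78 (difference 1.97, standard error 0.57, unadjusted p = 0.000793), ZC3H12A, an RNase that degrades inflammatory mRNA, with -0.32 and 1.07, and SLC4A7, a bicarbonate transporter, with 0.30 and -1.61. For the genes of this last contrast, the larger effect was that in HF-ZG. No difference passed the adjusted p, which was 1.00 for both CH contrasts and 0.894 for HF-ZG.

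**Figure D4:**
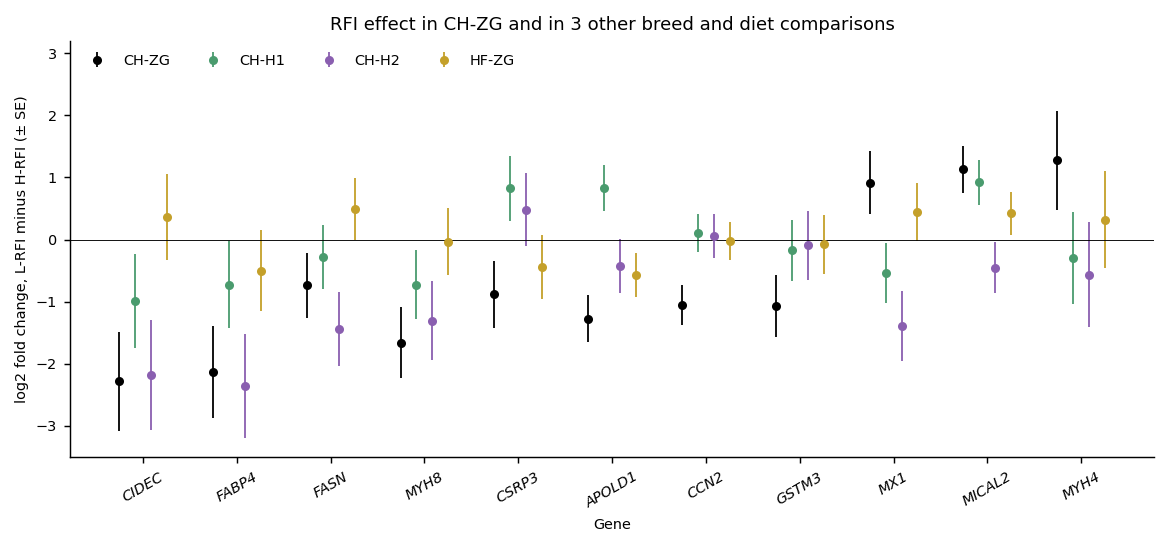
Log2 fold change (L-RFI minus H-RFI) with its standard error for 11 genes in CH-ZG and in CH-H1, CH-H2 and HF-ZG, all from 1 fit of 104 libraries. CIDEC lies below 0 in the 3 CH comparisons only and FABP4 in these and in HF-ZG, while APOLD1, MX1 and MICAL2 change side between some comparisons. No difference passed the adjusted p.

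Finally, 8 of the 17 steers were also sampled on concentrate, 5 in H1 and 5 in H2, and kept their class in 7 of these 10 pairings. The values below are normalized CPM on the scale of the fit of all libraries and are a description. The phases followed one another in the order H1, grass and H2. Diet therefore cannot be told apart from age, body weight or sampling date. CIDEC in steer 1484, H-RFI in both phases, was 17.6 on grass and 2.98 in H2. In steer 1100, which was L-RFI in H1 and on grass and H-RFI in H2, it was 5.45 in H1, 0.969 on grass and 1.80 in H2. Steer 307 was H-RFI in H1 and on grass and L-RFI in H2, and its values of 5.06, 7.01 and 5.66 moved little. CIDEC was thus lower on grass in 2 of 5 steers against H1 and in 2 of 5 against H2.

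THRSP was lower on grass than in H1 in 4 of 5 steers, with 0.444 against 9.75 in steer 1100 as the widest gap and steer 449 (3.23 against 0.863) as the exception. Against H2 it was lower on grass in 2 of 5 steers and higher in 3. MYH8 was higher on grass than in H2 in 5 of 5 steers, with 24.1 to 41.4 on grass and 4.49 to 24.8 in H2. The steers' order in MYH8 was in part kept, since steer 449 was highest on grass (267) and in H1 (85.2) and steer 1831 lowest in both (1.74 and 1.299). MICAL2 in steer 1831 was likewise the highest of the steers in both phases, at 280 on grass and 137 in H1. GSTM3 in steer 1484 was 187 on grass and 30.1 in H2. RPL12 stayed on its side of the gap in every steer. Steers 449 and 1816 were under 1 CPM on grass (0.462 and 0.315) and in H1 (0.647 and 0.246), and the other 6 were between 9.79 and 43.9 in each library.

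**Figure D5:**
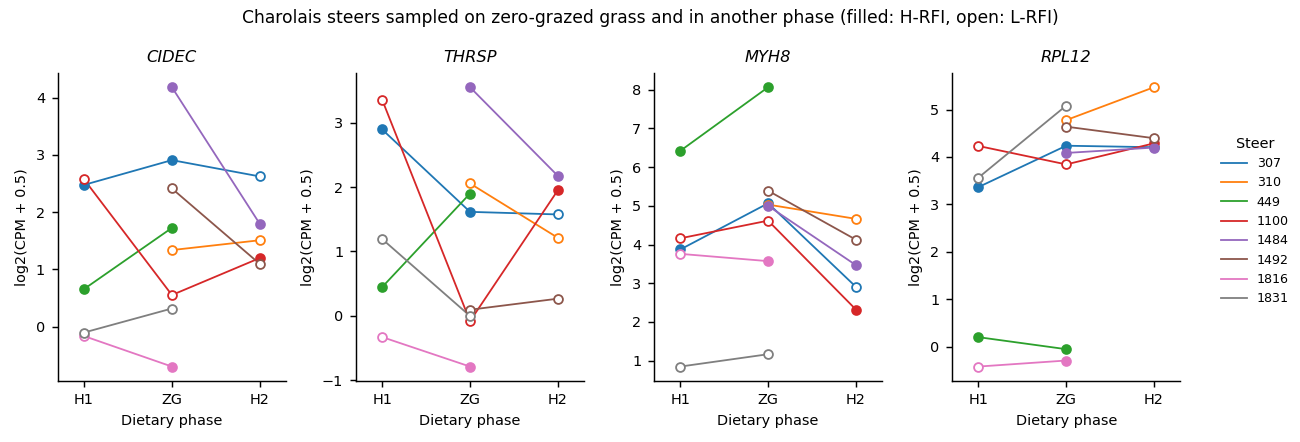
CIDEC, THRSP, MYH8 and RPL12 (log2 of normalized CPM plus 0.5) in 8 CH steers with a kept library on grass (ZG) and in H1 or H2, 1 line per steer, filled where the steer was H-RFI in that phase and open where it was L-RFI. MYH8 is higher on grass than in H2 in all 5 steers with both, and RPL12 stays low in steers 449 and 1816. Diet and age change together between the phases.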

How the data were processed

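The deposited files hold, per library, raw counts of reads per Ensembl gene that the authors obtained by trimming with cutadapt, aligning with STAR 2.5.1 and counting with its GeneCounts mode, without normalization or filtering. The study's methods name the ARS-UCD1.2 assembly and the submitters' processing notes UMD3.1, so the build is uncertain and no coordinates are given. The reverse-strand counts were used (24616 genes). STAR's 4 rows of reads on no gene, a median of 18.9% of the reads in CH-ZG, stayed out of library sizes. Libraries under 1000000 counts (6 of 111) and that of steer 571 were left out, leaving 104, of which 17 are CH-ZG. At 3 counts, the smallest share that these depths can show was 0.0892 to 0.662 CPM, which covers counting error only.

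A gene was kept when 50% or more of the libraries (9 of 17) reached 1 CPM, so a gene expressed in all L-RFI steers alone could pass and one in all H-RFI steers alone could not. L-RFI was compared with H-RFI by edgeR's quasi-likelihood test with TMM factors, with Benjamini-Hochberg adjustment over all genes tested. The study's methods name edgeR's exact test, which was run as an alternative. Standard errors are the fold change divided by the square root of the test statistic. Differences between effects came from 1 fit with 12 group means. Each steer gave 1 library per group. Correlations used log2(CPM + 0.5) and 100000 permutations. The fits were run in R 4.3.3 with DESeq2 1.42.0, edgeR 4.0.16 and limma 3.58.1, and the other tests in Python 3.11.15 with scipy 1.17.1 and numpy 2.4.6 (plots: matplotlib 3.10.9). The fits were tested on simulated data.

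Gene names were taken from the study's supplementary table (151 in the files), since the annotation at hand pairs 0 genes with Ensembl identifiers. The genes named are those that the study lists for CH-ZG, the 10 named genes with the smallest p in each direction, the 3 kept members of each list with the smallest p and the 3 named genes with the smallest p in each difference. List members outside the first of these groups are mostly given as counts. The comparison, the lists and the rule were chosen with earlier results of these data known. One gene of the study's list is not reported here.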

Additional observations from a re-analysis of the deposited data

Results flagged for a closer look

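Of 94 groups of 8 or 9 steers tested for a value far from the others (Dixon's criterion, which chance alone meets in about 1 of 20), 3 were flagged, all in L-RFI. MYH8 was at 1.47 normalized CPM in steer 1831, far below the other L-RFI steers. MYH4 was at 39.6 normalized CPM in steer 318, far above them, and RPL12 was at 0.260 in the same steer, far below them.

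The left-out library of steer 571 held a signal outside the comparison, with the 12 named hepatocyte markers summing to 164190 CPM.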

How the results depend on the processing

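The count of 0 called genes was also obtained under each of the 34 alternatives run, leaving out each steer in turn included (0 to 0). With the library of steer 571, the differences of the effect against CH-H1, CH-H2 and HF-ZG passed the adjusted p in 337, 257 and 211 genes, where leaving out any kept steer gave 0 to 0. limma voom with the steer as replicate block found 0 genes in each difference, as it did with no replicate block. Of 629 values of 37 genes, 601 kept their sign and 28 did not, and none was called. The following changed sign; the cause was not tested. With steer 571, PLIN5 was 0.11, MX1 -0.094 and SNX10 -2.57, and with both left-out libraries PLIN5 was 0.090, MX1 -0.13, SNX10 -2.61 and SLC4A7 -0.0086. With the library under 1000000 counts ALB was 0.88, with DESeq2 0.10. With voom and quality weights PLIN5 was 0.39, ALB 0.35 and PDK4 0.66. Without the 5 libraries of low TMM factor PLIN5 was 0.17, MYH6 -0.084, MT-CO3 -0.19, MT-ND3 -0.11, ALB 0.27, PDK4 0.30 and PLEK -0.013, and PDK4 was 0.44 with the factor as covariate. Leaving out each steer, the ranges were -0.14 to 0.20 for PLIN5, -0.14 to 0.45 for MYH6, -0.61 to 0.050 for MYL6B, -1.05 to 0.073 for ALB, -0.36 to 0.75 for PDK4, -0.11 to 0.93 for PLEK, -0.094 to 0.36 for SNX10 and -0.18 to 0.59 for SLC4A7. With 9 and 8 steers and counts as low as 4534891, genes near 1 CPM such as FABP4 (-2.32 to -0.35 over the alternatives) are measured imprecisely. The covariate, the low-factor and the 8-library filter alternatives were chosen after seeing the data.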

Other observations

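RPL12 was also under 1 normalized CPM in CH libraries beyond those 17, but the gap between the levels was much narrower there. Of 49 CH libraries from the 3 phases, 14 were under 1 normalized CPM, at most 0.647, and the lowest of the others was at 1.17. Of 12 CH steers with libraries from more than 1 phase, 3 were under 1 CPM in each, 8 in none and 1 in some.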
